A study of Homo sapiens with 6 samples.

Results

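A set of 10 classic target genes of the transcriptional coactivator YAP and its DNA-binding TEAD partners were followed in SPT5-AID cells with knockdown of ARMC5. The genes were CCN1, CCN2, ANKRD1, AMOTL2, THBS1, AXL, F3, CRIM1, TGFB2 and LATS2-AS1. They were chosen in part by their change between the groups, since several were higher in shARMC5 cells, and their values are given as a description, with no test. Of the 10 listed genes, 9 had a transcript that could be matched to the annotation, among 35810 genes in all, and LATS2-AS1 was not analysed here. All 9 passed the filter on low values, 10 or more counts in no fewer than 3 libraries, which 13737 genes passed.

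The libraries were made from polyadenylated RNA of DLD-1 cells, an established human colorectal adenocarcinoma line, whose SPT5 protein is fused to an auxin-inducible degron (SPT5-AID). Both groups share this allele, and the labels name no auxin for either. One group of 3 libraries came from cells with a short hairpin RNA against ARMC5 (shARMC5), an adaptor of the CUL3 ubiquitin ligase, and the other group of 3 came from cells with a nontargeting hairpin (shNT). The study's methods describe GIPZ lentiviral hairpins, with more than 1 against ARMC5, and the labels do not say which was used, so the comparison may rest on 1 hairpin. The study's methods define such replicates as biological, and the labels do not say how the cultures were separated.

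YAP and its paralog TAZ (gene symbol WWTR1) shuttle between cytoplasm and nucleus. The Hippo kinases LATS1 and LATS2 phosphorylate them and keep them out of the nucleus, and unphosphorylated YAP binds TEAD1 to TEAD4 on DNA and activates genes of matrix, adhesion and growth. CCN1, CCN2 and ANKRD1 are the genes most often read as a measure of YAP activity, and AMOTL2 and LATS2 encode proteins that restrain YAP in turn. In intestinal epithelium YAP is known for its part in regeneration and in tumour growth.

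Of the 10 genes, 7 had a promoter window in RefSeq (GRCh38.p14), running from 250 bases before a transcription start to 50 bases after it, with 9 windows in all because AMOTL2 and AXL have 2 starts each. CCN1, CRIM1 and LATS2-AS1 had no window. The windows of the 5 genes whose most used start has the core TEAD motif are printed to show where the motif lies. TEAD binding is part of what makes these genes classic targets, so finding it here is a description and not an independent observation. Each sequence is the gene's own strand, 5′ to 3′, and capitals mark the motif, GGAATG or its reverse complement CATTCC. CCN2 lies at chr6:131951323-131951622 on the minus strand, ANKRD1 at chr10:90921038-90921337 (minus), THBS1 at chr15:39580829-39581128 (plus), the second AMOTL2 start at chr3:134374398-134374697 (minus) and TGFB2 at chr1:218345086-218345385 (plus).
CCN2: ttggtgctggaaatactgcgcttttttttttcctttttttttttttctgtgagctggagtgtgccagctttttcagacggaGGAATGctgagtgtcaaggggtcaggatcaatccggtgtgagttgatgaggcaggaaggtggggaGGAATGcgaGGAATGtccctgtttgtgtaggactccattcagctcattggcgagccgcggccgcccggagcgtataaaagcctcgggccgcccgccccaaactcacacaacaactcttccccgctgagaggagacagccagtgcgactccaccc
ANKRD1: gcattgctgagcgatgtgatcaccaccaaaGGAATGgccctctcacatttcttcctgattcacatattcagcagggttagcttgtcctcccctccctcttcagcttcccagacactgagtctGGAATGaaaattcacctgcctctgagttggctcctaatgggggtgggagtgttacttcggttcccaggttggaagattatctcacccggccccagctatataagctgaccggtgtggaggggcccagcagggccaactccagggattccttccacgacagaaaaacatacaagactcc
THBS1: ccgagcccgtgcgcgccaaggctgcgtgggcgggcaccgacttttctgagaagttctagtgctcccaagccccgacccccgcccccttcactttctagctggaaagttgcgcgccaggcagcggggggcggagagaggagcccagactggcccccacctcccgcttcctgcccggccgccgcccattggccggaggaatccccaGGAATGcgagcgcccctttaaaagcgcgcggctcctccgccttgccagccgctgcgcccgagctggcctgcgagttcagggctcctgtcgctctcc
AMOTL2: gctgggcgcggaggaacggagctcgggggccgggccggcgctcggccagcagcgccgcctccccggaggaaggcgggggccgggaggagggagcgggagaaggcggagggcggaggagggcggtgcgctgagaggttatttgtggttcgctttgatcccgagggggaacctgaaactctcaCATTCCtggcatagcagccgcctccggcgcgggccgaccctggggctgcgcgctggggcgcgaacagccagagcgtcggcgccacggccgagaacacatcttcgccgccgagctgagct
TGFB2: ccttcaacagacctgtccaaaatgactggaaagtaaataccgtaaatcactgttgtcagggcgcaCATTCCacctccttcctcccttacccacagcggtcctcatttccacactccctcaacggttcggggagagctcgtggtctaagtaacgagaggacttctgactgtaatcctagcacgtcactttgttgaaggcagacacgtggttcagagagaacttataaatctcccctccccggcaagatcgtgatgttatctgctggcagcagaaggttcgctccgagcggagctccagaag

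CCN2 held 3 copies of the motif, with first bases 169, 104 and 95 bases before the start. ANKRD1 held 2, at 220 and 128 bases. THBS1, AMOTL2 and TGFB2 held 1 each, at 46, 69 and 185 bases before the start, and in AMOTL2 and TGFB2 the letters were those of the opposite strand. The other AMOTL2 window and the F3 window had no match. AXL had a match only in the window of its second start, 212 bases upstream. In all, 6 of the 9 windows had a match. Of all 35116 RefSeq windows of this length, 14% held at least 1 match on either strand, 1.37% at least 2 and 0.128% at least 3.

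A second motif, the AP-1 element TGANTCA, which reads the same on both strands apart from its middle base, was found 2 times in the F3 window, 223 and 210 bases before the start, and once in ANKRD1, 195 bases before it. It was present in 7.71% of all windows and overlapped no TEAD match. The CArG box bound by SRF was in none of the 9 windows and in 1.29% of all windows. These are matches of letters in a short window and not measured sites of binding.

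**Figure D1:**
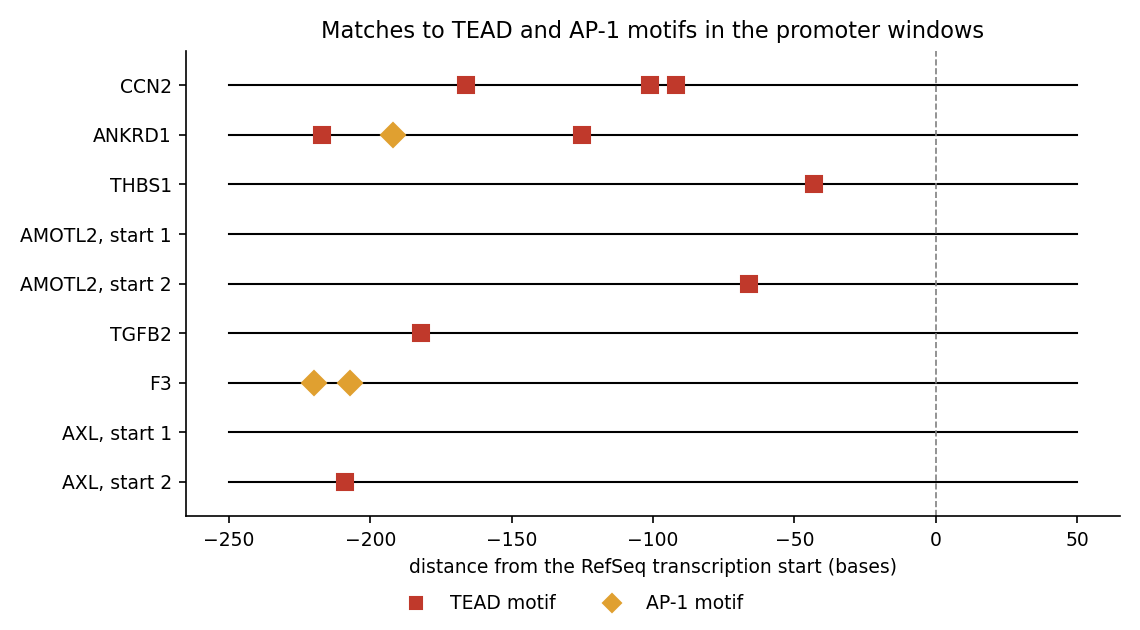
Positions of motif matches in the 9 RefSeq promoter windows of 7 target genes, with the distance from the transcription start in bases on the horizontal axis and 1 line per window. Red squares are TEAD motifs (GGAATG or CATTCC) and yellow diamonds are AP-1 motifs (TGANTCA). CCN2 shows 3 TEAD matches within 169 bases of its start, and F3 shows 2 AP-1 matches and no TEAD match.

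The annotated transcripts that begin at these starts carried most reads of their genes. The 2 transcripts at the second AMOTL2 start held 98.6 to 99.9% of that gene's estimated reads in every library, and no transcript in the files began at the other AMOTL2 start. The start printed for TGFB2 accounted for 80.3 to 85.8% of its reads, that of THBS1 for 99.4 to 99.9%, and that of F3 for 94.3 to 96.6%. For AXL the first start, which lacks the motif, held 60.5 to 100% of the reads, on a gene with only 19 to 35 reads per library.

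ARMC5 itself was measured at 10.8, 12.0 and 12.9 CPM in the shARMC5 libraries and at 23.0, 25.9 and 26.7 CPM in the shNT libraries, where CPM are counts per 1000000 reads after TMM normalization. Its log2 fold change was -1.09 (SE 0.08, edgeR adjusted P = 5.32e-07). The libraries held 26201112 to 40866478 estimated reads. The 10 measured intestinal epithelial markers summed to 9659 to 9748 CPM in shARMC5 and 8564 to 8891 CPM in shNT. The keratins KRT8, KRT18 and KRT19 were called higher, that is, with an edgeR adjusted P value under 0.1 over all tested genes (log2 fold changes 0.18, 0.25 and 0.11), VIL1, which encodes the microvillus protein villin, was called lower (-1.30), and CDX1 was at 0 in all libraries. The other 5 markers, EPCAM, CDH1, CDX2, CLDN3 and CLDN4, were not called, with log2 fold changes of -0.04 to 0.03, so the higher sum lay in the keratins. All 10 fibroblast markers were under 1 CPM in every library, with 4 at 0 and sums of 0.793 to 1.01 CPM in shARMC5 and 0.734 to 0.892 CPM in shNT. Endothelial markers summed to 3.20 to 3.56 and 2.64 to 3.08 CPM, with 2 of 6 at 0, and immune markers to 0.858 to 2.18 and 0.821 to 2.26 CPM, with 3 of 7 at 0. The part of these differences in the values that follow was not tested.

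CCN1 and CCN2 encode secreted matricellular proteins of the CCN family, which bind integrins and heparan sulphate at the cell surface. CCN1 (chr1:85580761-85584589, plus strand, 5 exons) stood at 94.3, 101.5 and 90.8 CPM in the shARMC5 libraries and at 59.8, 64.6 and 60.2 CPM in the shNT libraries. Every shARMC5 library was above every shNT library, and the lowest of them was 1.41 times the highest shNT value. The log2 fold change was 0.64 (SE 0.05, n = 3 per group), a ratio of 1.55. CCN2 (chr6:131948176-131951372, minus strand, 5 exons) was measured at 17.8, 16.9 and 14.7 CPM with shARMC5 and at 8.81, 10.2 and 9.35 CPM with shNT. Its groups were likewise apart, by a factor of 1.45 between the nearest libraries, and its log2 fold change was 0.80 (SE 0.09), a ratio of 1.74. In a bulk sample, more cells with a transcript and more transcript per cell cannot be told apart.

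ANKRD1 encodes an ankyrin repeat protein of the nucleus and the muscle sarcomere and was the member with the greatest difference. It lies at chr10:90912096-90921087 on the minus strand and has 9 exons. Its levels were 5.411, 5.629 and 4.203 CPM in shARMC5 and 2.14, 2.81 and 1.53 CPM in shNT. The lowest shARMC5 library was 1.498 times the highest shNT library. The log2 fold change was 1.23 (SE 0.21), a ratio of 2.35, which placed ANKRD1 37th from the top among all 13737 tested genes. It rests on 43 to 222 reads per library, the fewest of any member but AXL, and its SE was the second highest.

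AMOTL2, an angiomotin family scaffold that binds YAP and helps activate LATS kinases, lies at chr3:134355347-134375479 on the minus strand. It was measured at 151.2, 148.7 and 141.8 CPM with shARMC5 and at 116.6, 128.2 and 115.6 CPM with shNT. The groups did not overlap, though shNT replicate 2 came within a factor of 1.11 of the lowest shARMC5 library. The log2 fold change was 0.29 (SE 0.04), a ratio of 1.23. LATS2-AS1, the noncoding gene on the strand opposite LATS2 (chr13:21005157-21018122, plus strand), has no value here, and LATS2 itself is given with the Hippo genes.

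THBS1 encodes thrombospondin 1, a secreted matrix glycoprotein known to release TGF-beta from its latent form. It spans chr15:39581079-39599466 on the plus strand, with 22 exons. Its levels were 124.6, 126.0 and 121.0 CPM in shARMC5 and 95.6, 97.0 and 94.0 CPM in shNT. The 3 values of each group lay within a few CPM of each other and the groups were apart by a factor of 1.25. The log2 fold change was 0.38 (SE 0.03), a ratio of 1.30.

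TGFB2, a ligand of the TGF-beta receptors (chr1:218345336-218444619, plus strand), differed least among the members that did not overlap. It stood at 105.1, 105.5 and 104.4 CPM with shARMC5 and at 98.59, 94.96 and 96.11 CPM with shNT. The nearest libraries of the 2 groups differed by a factor of 1.06. Its log2 fold change was 0.12 (SE 0.03), a ratio of 1.09. CRIM1, a transmembrane protein with cysteine-rich repeats that bind BMP ligands (chr2:36355778-36551135, plus strand, 17 exons), was at 212.6, 207.1 and 201.7 CPM with shARMC5 and at 176.6, 170.7 and 167.9 CPM with shNT. Its groups did not overlap, and the log2 fold change was 0.27 (SE 0.03), a ratio of 1.21.

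F3 and AXL are cell surface receptors. F3 encodes tissue factor, the receptor that starts the extrinsic clotting cascade by binding factor VII (chr1:94529173-94541759, minus strand, 6 exons). Its levels were 102.3, 102.7 and 96.5 CPM in shARMC5 and 80.0, 82.8 and 72.3 CPM in shNT. All shARMC5 libraries were above all shNT libraries, and the log2 fold change was 0.36 (SE 0.05), a ratio of 1.28. AXL, a receptor tyrosine kinase for GAS6 (chr19:41219223-41261766, plus strand, 20 exons), was near the limit of detection. It stood at 0.726, 0.837 and 0.753 CPM in shARMC5 and at 0.581, 0.586 and 1.25 CPM in shNT. The groups overlapped, with shNT replicate 3 above all other libraries. The log2 fold change was -0.04 (SE 0.37), and over the alternative settings it lay between -0.23 and 0.41, the latter without shNT replicate 3, so these data give AXL no direction.

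**Figure D2:**
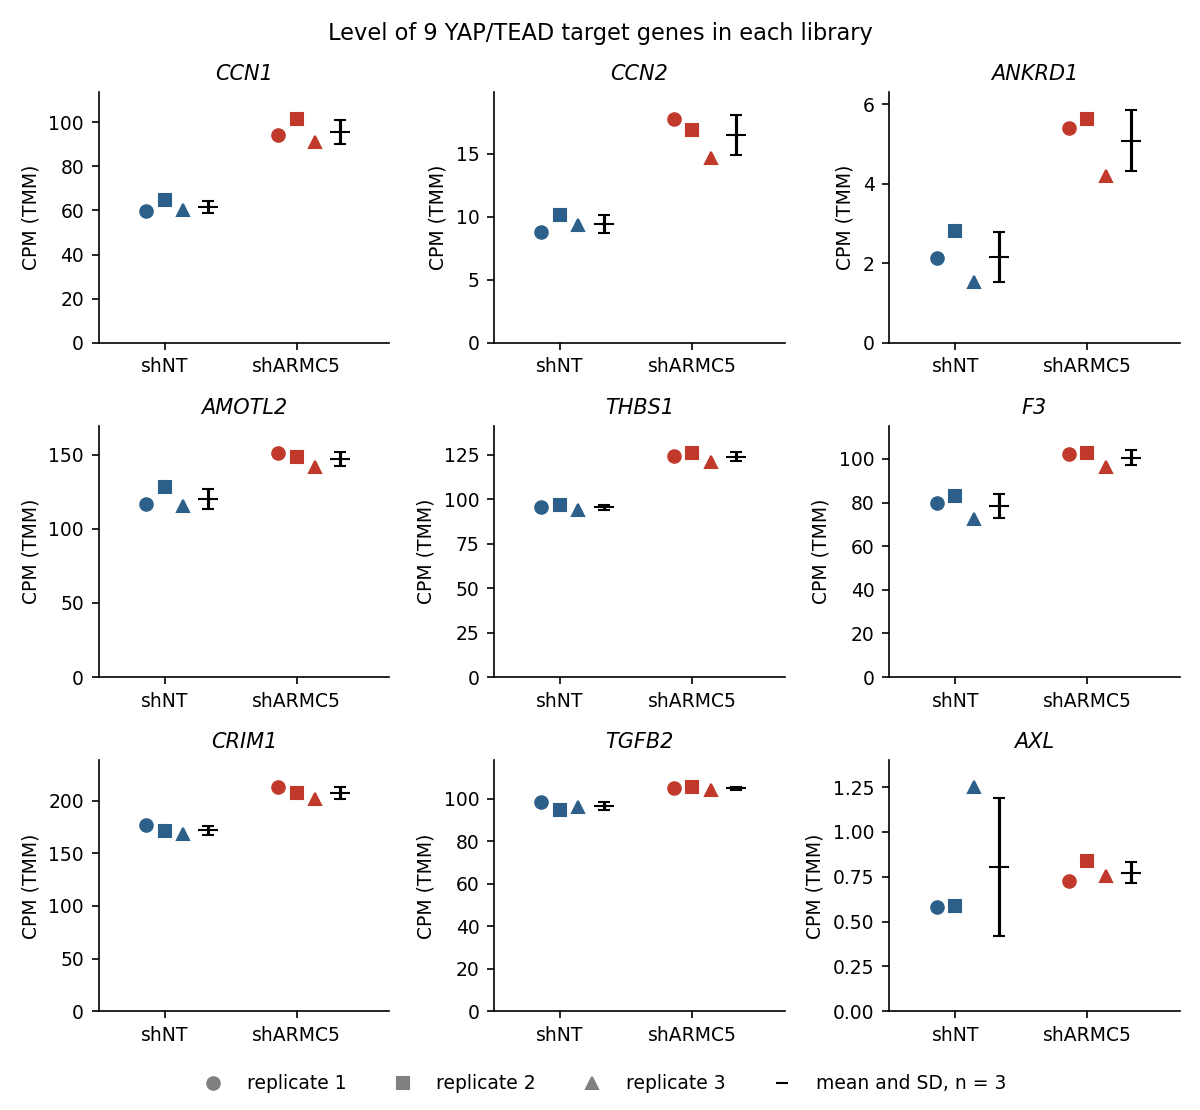
Level of each of the 9 measured target genes in every library, in TMM-normalized CPM on an axis from 0, with shNT in blue and shARMC5 in red. Symbols are replicates 1 to 3 and bars are the mean and SD of 3 libraries. In 8 of the 9 panels every shARMC5 point is above every shNT point, and in AXL shNT replicate 3 is the highest point at 1.25 CPM.

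In 8 of the 9 measured genes every shARMC5 library was above every shNT library, which held for 12.5% of all tested genes. Because the change helped to choose these genes, nothing is read from this count. The median log2 fold change of the 9 was 0.36, and that of all tested genes was -0.0014. The members ran from ANKRD1, CCN2 and CCN1 at 1.23, 0.80 and 0.64, through THBS1 and F3 at 0.38 and 0.36, to AMOTL2, CRIM1 and TGFB2 at 0.29, 0.27 and 0.12. CCN2 and ANKRD1, with 3 and 2 TEAD matches, are the 2 highest of the 7 genes with a window, whereas F3, with none, was above AMOTL2 and TGFB2, with 1 each. This order is a description of 7 genes and the relation was not tested.

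**Figure D3:**
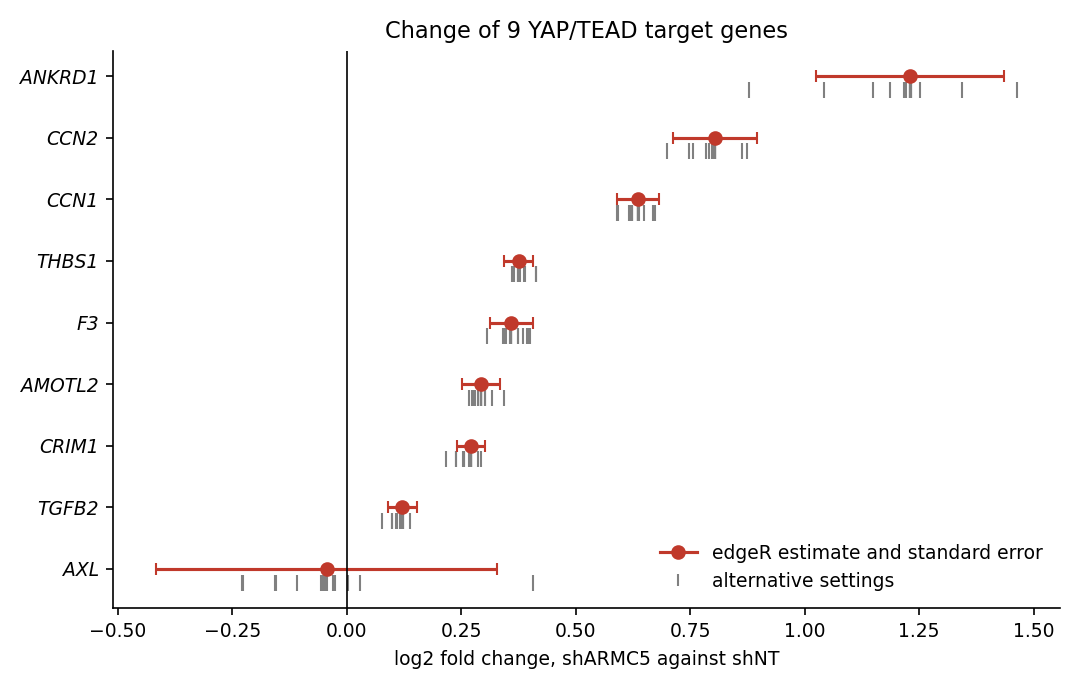
Log2 fold change of shARMC5 against shNT for the 9 genes, with the edgeR estimate and its SE in red and each alternative setting of the processing as a grey tick. ANKRD1 is highest at 1.23 and TGFB2 lowest of the genes above 0 at 0.12, and only the ticks of AXL lie on both sides of 0.

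Within groups the members moved partly together. In shARMC5 replicate 3, the shallowest library, 8 of the 9 genes had their group's lowest value, where 35.3% of all tested genes did. Replicate 2 of shNT held its group's highest value for 6 of the 9, where 35.8% of tested genes did. Replicate 2 of shARMC5 also held the highest value for 6 of the 9, against 33.2% of tested genes. The members share their libraries, so these counts are not over independent genes. Without shARMC5 replicate 3 the median log2 fold change of the members was 0.38.

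**Figure D4:**
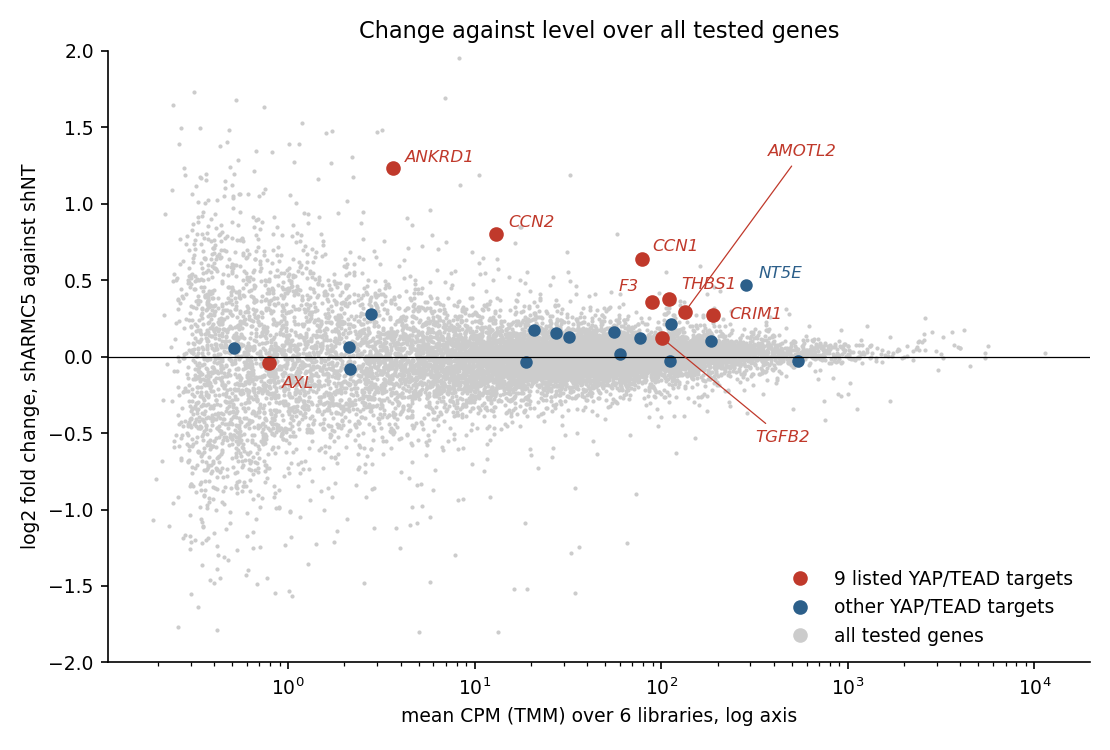
Log2 fold change of shARMC5 against shNT (vertical axis) by mean level over 6 libraries in TMM-normalized CPM (horizontal log axis) for the 13737 tested genes in grey, of which 25 lie outside the plotted range. The 9 target genes are in red and other YAP/TEAD target genes in blue. ANKRD1 and AXL sit among the low genes, where the grey cloud is wide, and CCN1, THBS1, F3, AMOTL2 and CRIM1 sit above a narrow part of the cloud.

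Levels were compared between genes per length of transcript, in transcripts per 1000000 (TPM). In shNT cells F3 was highest at 58.8 ± 5.52 TPM (SD, n = 3), followed by CRIM1 at 50.9 ± 2.73 TPM, and the ranges of these neighbours overlapped. CCN1 at 43.8 ± 1.83, AMOTL2 at 41.7 ± 2.25 and TGFB2 at 37.8 ± 2.25 TPM came next, with each neighbour's range overlapping the one before it in this trio. THBS1 was lower at 20.5 ± 0.253 TPM, and CCN2, ANKRD1 and AXL were at 6.58 ± 0.383, 1.69 ± 0.510 and 0.294 ± 0.137 TPM, each apart from its neighbours in every library. Thus CCN1 and CCN2, which are commonly used together, differed in level in the same cells, and 73.6% of tested genes had a lower mean TPM than CCN1, 31.9% a lower one than CCN2 and 16.9% a lower one than ANKRD1.

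In shARMC5 cells the order was F3 at 76.3 ± 4.13 TPM, CCN1 at 66.6 ± 4.72 TPM and CRIM1 at 59.4 ± 3.42 TPM. CCN1 and CRIM1, which overlapped in range here, had changed places relative to shNT, where they did not overlap. AMOTL2 followed at 50.8 ± 3.25, TGFB2 at 39.97 ± 3.12 and THBS1 at 27.0 ± 0.265 TPM. CCN2 was at 11.3 ± 1.26, ANKRD1 at 3.92 ± 0.643 and AXL at 0.262 ± 0.0413 TPM. TPM of TGFB2 overlapped between the groups, at 36.50 to 42.53 in shARMC5 and 35.47 to 39.95 in shNT, although its CPM did not.

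**Figure D5:**
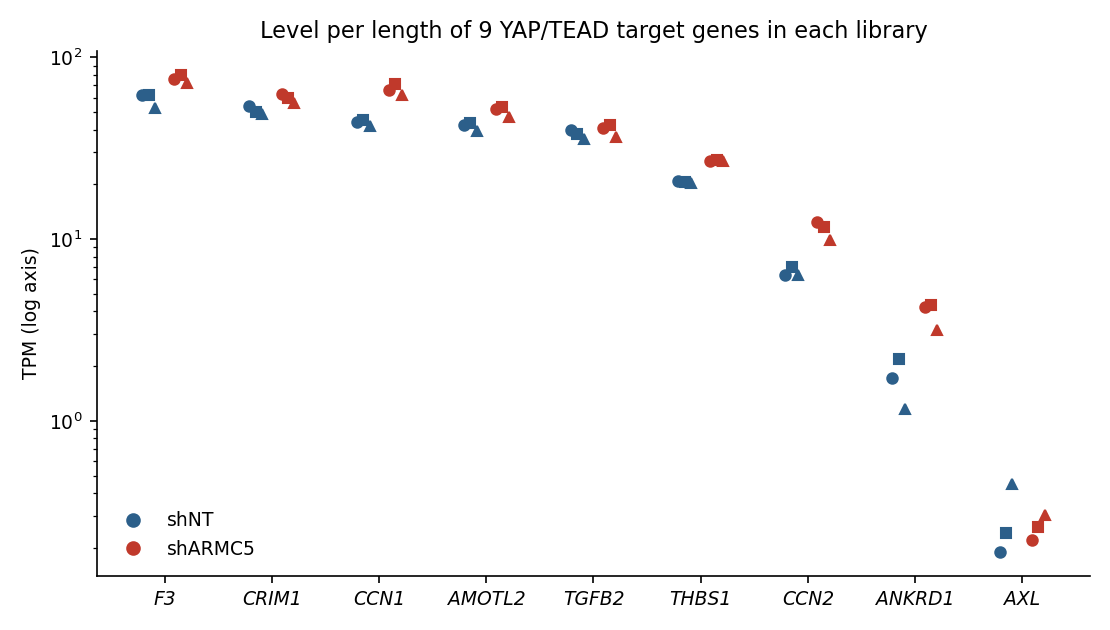
Level per transcript length of the 9 genes in every library, in TPM on a log axis, with shNT in blue and shARMC5 in red and genes ordered by their shNT mean. Levels run from 58.8 TPM for F3 to 0.294 TPM for AXL in shNT, and the points of TGFB2 and AXL overlap between the groups.

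Salmon divides reads among the transcripts of a gene, and these shares are given by library, with no test. CCN2 and ANKRD1 have 1 transcript each in the files, and single transcripts held at least 99.6% of the reads of CCN1, 99.0% of THBS1 and 98.8% of CRIM1. AMOTL2 had 2 main transcripts. AMOTL2-201 held 67.6, 59.0 and 63.8% of the reads in shARMC5 and 70.1, 60.4 and 65.1% in shNT, and AMOTL2-202 held most of the rest. In both groups replicate 1 had the highest share of AMOTL2-201 and replicate 2 the lowest, so the shares differed more within than between the groups. TGFB2-202 held 84.1, 80.3 and 85.8% in shARMC5 and 82.9, 82.3 and 82.8% in shNT, with overlapping groups. F3-202, a transcript with 5 exons in place of 6, held 3.41, 2.49 and 5.08% of F3 reads in shARMC5 and 5.18, 4.10 and 4.99% in shNT, again with overlap.

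The library kit is not stated to mark strand, so reads from genes that overlap a member on either strand cannot be assigned by strand. FSIP1 shares 448 exonic bases with THBS1 on the opposite strand. It had 34 to 58 reads per library and THBS1 had 2635 to 4970, and the part of shared reads was not tested. Its log2 fold change was -0.31 (SE 0.26, edgeR adjusted P = 0.594). RPL39P5, a pseudogene overlapping AMOTL2 by 187 exonic bases, had 0 to 5 reads. FEZ2, which encodes a neuronal outgrowth protein, lies opposite CRIM1 and shares no exonic base with it. It rose by 0.23 on the log2 scale (SE 0.04, edgeR adjusted P = 0.00372). The other 7 genes that overlap members, LINC01013, THBS1-IT1, THBS1-AS1, TGFB2-AS1, TGFB2-OT1, ENSG00000269652 and ENSG00000273090, were not analysed here, and 6 of them share 67 to 1371 exonic bases with CCN2, THBS1, AXL, CRIM1 or TGFB2. Reads of these genes could be counted with the members.

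The genes whose pattern was most like that of the members were sought among 9325 other tested genes whose level averaged 10 CPM or more, by Pearson's r with the members' mean standardized profile over the 6 libraries. The profile mainly separates the 2 groups, which all the libraries share, so the values are descriptions. ITGB5, an integrin beta subunit, had the highest r at 0.9989, and stood at 264.3, 262.8 and 252.7 CPM in shARMC5 and 211.2, 213.3 and 211.2 CPM in shNT. EGR1, an immediate early transcription factor, followed at 0.9969, GPRC5A, an orphan receptor induced by retinoic acid, at 0.9959, G3BP2, a stress granule protein, at 0.9939 and DUSP6, a phosphatase of ERK, at 0.9938. Their differences were not alike in size, since DUSP6 had a log2 fold change of 0.59 and G3BP2 one of 0.06. Among the members, r with the mean profile was 0.948 to 0.997 for 8 genes and 0.001 for AXL, where each gene is part of the profile and the choice of genes favoured a shared difference.

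Other target genes of YAP and TEAD were read from a list of 19 that leaves out the members. Of the 16 tested, 4 rose (25.0%, beside 4.44% of all tested genes), none fell (beside 3.30%) and 12 were not called, and 12 of the 16 had a log2 fold change above 0, where 49.5% of all tested genes did. The list's median was 0.11. The called genes, by log2 fold change, were NT5E, the ectonucleotidase CD73, at 0.47 (SE 0.03, edgeR adjusted P = 2.8e-08), AREG, a ligand of EGFR, at 0.21 (SE 0.04, 0.0058), LATS2 at 0.16 (SE 0.04, 0.0343) and AJUBA, a LIM protein that binds LATS kinases, at 0.10 (SE 0.03, 0.0542). FOXF2, AMOTL1 and INHBA did not pass the filter. NT5E passed under each of 16 alternatives, AREG under 15, LATS2 under 11 and AJUBA under 8. The call of LATS2 was lost without shARMC5 replicate 2 or shNT replicate 3 (adjusted P = 0.162 and 0.138), and that of AJUBA was lost when any of 4 libraries was left out, all but shARMC5 replicate 1 and shNT replicate 2 (adjusted P = 0.124 to 0.214). With the length offset AJUBA was at 0.05 and was not called (adjusted P = 0.65 in edgeR and 0.738 in DESeq2).

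Of YAP, TAZ, the TEAD factors and their VGLL cofactors, 8 of 9 were tested and 1 was called, which is 12.5%, beside 7.75% called in either direction and 4.44% called higher over all tested genes. YAP1 was 221.1, 218.2 and 217.1 CPM in shARMC5 and 209.0, 206.4 and 203.0 CPM in shNT, a log2 fold change of 0.09 (SE 0.03, edgeR adjusted P = 0.077). That call was lost when any of the 6 libraries was left out (adjusted P = 0.11 to 0.247). With all libraries it was lost in DESeq2, with library size only, with the length offset in either tool and with unmatched transcripts as features. It held under 5 of 16 alternatives, over which edgeR or DESeq2 gave adjusted P values of 0.024 to 0.392. WWTR1 at 0.22 (SE 0.15, adjusted P = 0.471), TEAD1 at 0.09 (0.273), TEAD2 at -0.13 (0.205), TEAD3 at 0.10 (0.345) and TEAD4 at 0.09 (0.337) were not called. TEAD1 was called with at least 1 count, with the replicate block and without shARMC5 replicate 3. YAP1 and TEAD1 were at 199.6 CPM or more in every library. The RNA level does not report phosphorylation or nuclear entry of YAP, which were not measured.

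Among Hippo kinases, scaffolds and upstream regulators, 17 of 18 were tested, 4 rose (23.5%, beside 4.44% of all tested genes) and 1 fell (5.88%, beside 3.30%), with a median of 0.03. SAV1, the scaffold of the MST kinases, rose by 0.28 on the log2 scale (SE 0.04, edgeR adjusted P = 0.00125), WWC2 by 0.23 (0.0444), LATS2 by 0.16 (0.0343) and WWC1, also called KIBRA, by 0.16 (0.0106). LATS1 fell by 0.22 on the log2 scale (SE 0.05, 0.00931), from 50.1, 48.5 and 49.6 CPM in shNT to 42.8, 43.5 and 40.9 CPM in shARMC5. With an offset for transcript length, SAV1 alone of the 5 was called in either tool. The adjusted P values were then 0.387 (edgeR) and 0.426 (DESeq2) for LATS2 and 0.196 and 0.106 for LATS1. With the offset in edgeR the log2 fold changes were 0.117 for LATS2, 0.133 for WWC2 and -0.193 for LATS1. WWC1 had a log2 fold change of 0.01 with the offset in DESeq2 (adjusted P = 0.985). WWC2 was also lost when any of 4 libraries was left out, all but shARMC5 replicate 3 and shNT replicate 2 (adjusted P = 0.114 to 0.169). Genes of this list called lower numbered 3 with at least 1 count or with the replicate block. They numbered 2 without shARMC5 replicate 2 or without shNT replicate 2.

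The members' paralogs and binding partners made a list of 23, of which 14 were tested, 2 rose (14.3%, beside 4.44% of all tested genes) and none fell (beside 3.30%), with a median of -0.07. TGFB1 rose by 0.64 on the log2 scale (SE 0.09, edgeR adjusted P = 0.000465), from 11.4, 9.59 and 9.96 CPM to 17.5, 14.7 and 15.9 CPM, and its call held under each of 16 alternatives. TYRO3, the receptor paralog of AXL, rose by 0.20 (0.0319), and was not called without shNT replicate 3 (0.115) or with the length offset in edgeR (0.215). Its log2 fold change was 0.166 without that library and 0.250 with the offset. In this list 1 gene was called lower with the length offset in DESeq2, with at least 1 count, with the replicate block and without shNT replicate 2. The other TGF-beta ligand, TGFB3, was at -0.23 (SE 0.12, 0.331), the CCN paralog CCN3 at 0.18 (SE 0.08, 0.234) and the AXL ligand GAS6 at -0.04 (SE 0.03, 0.532). THBS2, CCN4 and CCN6 were at 0 in every library. There 3 reads in the shallowest library would be 0.118 CPM of reads on genes, before TMM normalization.

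Lists of factors and targets that are known to share promoters with YAP were counted in the same fit. Of 18 tested targets of SRF, 8 rose (44.4%, beside 4.44% of all tested genes) and none fell (beside 3.30%, median 0.12). The highest of the 8 was EGR1 at a log2 fold change of 0.35 (SE 0.04, edgeR adjusted P = 8.93e-05). Next came the adhesion protein zyxin (ZYX) at 0.23 (0.000873), TPM1 at 0.18 (0.0026), CNN2 at 0.17 (0.00105) and ACTB at 0.16 (0.00121). With the length offset in edgeR 5 of the 18 were called higher, and TPM1 was not (0.133). Of 10 tested AP-1 factors, 3 rose (30%, beside 4.44% of all tested genes) and none fell (beside 3.30%, median 0.17), namely MAFF at a log2 fold change of 0.38 (0.0444), FOSL1 at 0.27 (0.0327) and JUNB at 0.16 (0.0697). All 3 were lost when single libraries were left out, MAFF for 4, FOSL1 for 2 and JUNB for 5 of the 6 libraries, with adjusted P values of 0.107 to 0.243. With the length offset 0 of the 10 were called higher in edgeR and 1 in DESeq2, and 0 with unmatched transcripts kept as features.

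Of 14 tested targets of TGF-beta and SMAD factors, 4 rose (28.6%, beside 4.44% of all tested genes) and 2 fell (14.3%, beside 3.30%), with a median of 0.12. TGFBI rose by 0.27 on the log2 scale (SE 0.04, edgeR adjusted P = 0.000448), ID2 by 0.15 (0.0115), CDKN2B by 0.93 (SE 0.30, 0.0971) and JUNB by 0.16 (0.0697). The value of CDKN2B rests on only 17 to 67 reads per library. ID1 fell by 0.17 on the log2 scale (0.0327) and ID3 by 0.18 (0.0733). The calls of CDKN2B and ID3 were lost when any of 5 libraries was left out, and ID1 lost its call without shARMC5 replicate 2 (0.18). With the length offset ID2 (0.224 in edgeR and 0.126 in DESeq2) and ID1 (0.215 and 0.101) were not called, and TGFBI was the 1 gene of the list still called higher. Some genes are on more than 1 list. Of the 93 distinct genes tested over the lists, 24 rose (25.8%) and 3 fell (3.23%), beside 4.44 and 3.30% of all tested genes, and since the lists were drawn up with results of these data known, these shares are descriptions.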

How the data were processed

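In all, 6 RNA-seq libraries were analysed, 3 with shARMC5 and 3 with shNT. Groups were taken from the labels. Per the submitters' processing notes and the study's methods, the authors used cutadapt 4.2 to trim the reads and Salmon 1.9.0 to quantify transcripts. The deposited files give an estimated count of reads, TPM and an effective length per transcript. Of 177456 transcripts, 165533 were matched without version to GENCODE 44 (GRCh38), and the others, with 2.96 to 3.04% of reads, were left out. Columns of per-sample values not used numbered 0.

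The estimated counts of a gene's transcripts were added and rounded. Where 3 libraries or more had 10 or more counts, a gene entered edgeR 4.0.16 (R 4.3.3) and its robust quasi-likelihood F test, with TMM factors and a single term for the hairpin, and Benjamini-Hochberg adjustment over all 13737 genes (threshold 0.1). A gene is called when it passes. The study's own methods used DESeq2 at the same threshold, after summarization with tximeta, and DESeq2 is an alternative here. Ratios are of mean CPM. The script was tested on simulated data. Depth was 26201112 to 40866478 reads per library, and counting error is largest for genes with few reads. P values set the difference between the groups against the spread between these libraries, which the study's methods call biological replicates. TPM per gene are sums of the deposited TPM. Promoter sequences are from RefSeq (GRCh38.p14), and motifs were searched on both strands. Tables were made with Python 3.11.15 and pandas 2.3.3, and figures with matplotlib 3.10.9.

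The members and the gene lists were chosen with earlier results of these data known, and 1 gene of the lists is not reported here. Named are the members, ARMC5, every gene overlapping a member, YAP1, WWTR1, TEAD1 to TEAD4, LATS1, LATS2, up to 5 called genes per list and direction by size of change, and the 5 genes most like the members' profile. Markers, untested list genes, TGFB3, CCN3 and GAS6 were named after their values were seen. Protein sequences were not used here. Alternatives were DESeq2's size factors, library size only, a transcript length offset in edgeR, DESeq2 1.42.0 (also with the offset), at least 1 count, edgeR's filterByExpr, a replicate block, each library left out, unmatched transcripts as features or added to the preceding gene, log2(TPM + 1) for the members, and a threshold of 0.05.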

Additional observations from a re-analysis of the deposited data

How the results depend on the processing

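The median log2 fold change of the 9 members was 0.34 to 0.40 over 17 alternatives and 0.34 to 0.39 with single libraries left out, against 0.36 as reported. The 8 members other than AXL were above 0 under each alternative. ANKRD1 ran from 0.88 on the log2(TPM + 1) scale, which understates low genes, to 1.46 without shNT replicate 2, and AXL from -0.23 without shNT replicate 1 to 0.41 without shNT replicate 3. With the length offset, THBS1 was at 0.41 and TGFB2 at 0.10. On the log2(TPM + 1) scale TGFB2 was at 0.077 and CRIM1 at 0.217. The count of called genes over all genes (1064) was 235 with the length offset in edgeR, 568 with it in DESeq2, 532 with unmatched transcripts as features, 676 at an adjusted P value under 0.05, and 536 to 1085 with single libraries left out, of which shARMC5 replicate 2 gave 600, shNT replicate 1 gave 536 and shNT replicate 3 gave 694. In the pathway lists the 24 genes called higher became 9, 15 and 14 under the first 3 of these, and 15 to 24 with single libraries left out, where shARMC5 replicate 2, shNT replicate 3 and shNT replicate 1 gave 15, 15 and 16. The 3 called lower became 0, 1 and 1, and 6 with at least 1 count. Of other YAP targets, the 4 called higher became 1, 2 and 2, and 2 to 4 with single libraries left out, where shARMC5 replicate 2 and shNT replicate 3 gave 2. The causes were not tested. Over all tested genes, the deviations of same-numbered replicates from their group means had correlations of -0.014, -0.006 and -0.022. These weigh all genes alike, low ones included, so they cannot decide whether the numbers pair libraries, and the labels state no pairing. The replicate block gave 1766 called genes, against 1064 without it, 6 list genes called lower and 7 other YAP targets called higher. Depth limits AXL, with 19 to 35 reads, and ANKRD1, with 43 to 222.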
